A study of Mus musculus with 8 samples.

Results

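Sphingomyelin is a membrane lipid that sphingomyelinases split into ceramide and phosphocholine. Ceramidases cleave ceramide into sphingosine and a fatty acid, and sphingosine kinases turn sphingosine into sphingosine 1-phosphate (S1P), a lipid ligand of G protein-coupled receptors. Sphingomyelin synthases run the first step backwards and rebuild sphingomyelin from ceramide. In the mammary gland these lipids are part of the plasma membrane of every cell type and of the membrane that surrounds milk fat droplets.

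The genes described are 10 of 19938 measured: the sphingomyelinases Smpd1, Smpd2, Smpd3 and Smpd4, the ceramidases Asah1 and Asah2, the sphingosine kinases Sphk1 and Sphk2, and the sphingomyelin synthases Sgms1 and Sgms2. They were taken as a family by function, with the earlier result for Smpd3 already known. Each gene was represented by the probe set with the highest mean over all 8 arrays among those annotated with a single symbol, and each of the 10 had 1 such probe set. All 10 were measured and none was removed by a filter.

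RNA came from mammary glands of 8 untreated virgin female mice, 5 weeks old, of a C57BL/6 X FVB background. All 8 carried MMTV-Cre, a recombinase under a mouse mammary tumour virus promoter that is active in mammary epithelium and is known to act in some other tissues as well. MMTV-Cre;Sox9flox/flox mice (n = 4) had both copies of the transcription factor gene Sox9 flanked by recombination sites, and MMTV-Cre;Sox9+/flox control mice of equal age (n = 4) had a single floxed copy beside a wild-type one, so the controls too carried Cre and a floxed allele. The dissected piece was the part of the fourth gland next to its lymph nodes, with a separate Affymetrix Gene 1.0 ST array for each gland, so each value mixes epithelial, fat, stromal and immune cells. For any gene in such bulk tissue, more cells of a type and more RNA per cell cannot be told apart.

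Sox9 read between 366 and 448 in the controls and between 287 and 356 in the flox/flox glands, and the ranges did not overlap. This was a log2 difference of -0.33 ± 0.09 (SE) that did not pass adjustment over all genes (limma adjusted p = 0.256). Which exons of Sox9 lie between the recombination sites is not given, so these probes may or may not read the deleted stretch. The defining markers of the labelled tissue were present: the luminal keratin Krt8 averaged 2596 in +/flox and 2464 in flox/flox glands and the basal keratin Krt14 averaged 599 and 671. The summed luminal, basal, white adipocyte and macrophage markers overlapped between the genotypes. In B cell markers 1 array stood apart, +/flox replicate 2, in which 7 measured markers summed to 4260.3 against 582 to 703 in the flox/flox glands. The summed B cell markers of the remaining +/flox arrays lay between 611 and 667. T cell markers, 6 measured, also stood apart in +/flox replicate 2, with a sum of 1276. Their sums lay between 674 and 687 in the remaining +/flox arrays and between 700 and 741 in the flox/flox glands. Over all genes the mean absolute log2 deviation from the genotype mean was largest in +/flox replicate 4 (0.113) and flox/flox replicate 2 (0.107). In the remaining arrays it ran from 0.0909 to 0.0969, with +/flox replicate 2 at 0.0934.

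Smpd3 was the member that rose in the flox/flox glands. It encodes neutral sphingomyelinase 2, a membrane-bound enzyme of the plasma membrane and Golgi that is known for its roles in bone and cartilage and in exosome release. Its normalized intensity, a linear scale without a unit, was 92.6, 126, 144 and 106 in +/flox replicates 1 to 4, and 817, 303, 772 and 612 in flox/flox replicates 1 to 4. All 4 flox/flox glands lay above the highest control, and flox/flox replicate 2 was the lowest of them. The means were 117 ± 22.6 (SD, n = 4) and 626 ± 233 (SD, n = 4). The log2 difference was 2.19 ± 0.26 (SE, 95% interval 1.61 to 2.77), or 4.57-fold with the offset of 16 still in, and it passed limma's test with an adjusted p of 0.0249. Smpd3 was already known to pass when the family was drawn up, so this value describes the gene and is not fresh evidence for it.

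Of the 10 members 1 passed the threshold of 0.05, against 0.0401% of all genes tested, or 8 genes, and 0.0301% in the higher direction. Nothing is read from that share, since the family was built around Smpd3. The call was lost without any 1 of +/flox replicate 1 (adjusted p = 0.0795), +/flox replicate 4 (0.114), flox/flox replicate 1 (0.0628) or flox/flox replicate 4 (0.0706), while the log2 difference stayed between 2.04 and 2.48 over the 8 fits with 1 array left out. It was also lost with an offset of 1 (adjusted p = 0.0538), with eBayes' trend and robust options (0.105) and with every probe set of the table tested together (0.251).

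Spread among the flox/flox glands was larger for Smpd3 than among the controls. On the log2 scale the SD was 0.25 over the 4 controls and 0.64 over the 4 flox/flox glands. Without flox/flox replicate 2 the log2 difference was 2.48 with an adjusted p of 0.000102. Without +/flox replicate 2, the array with high B cell markers, it was 2.23 with an adjusted p of 0.0471.

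**Figure D1:**
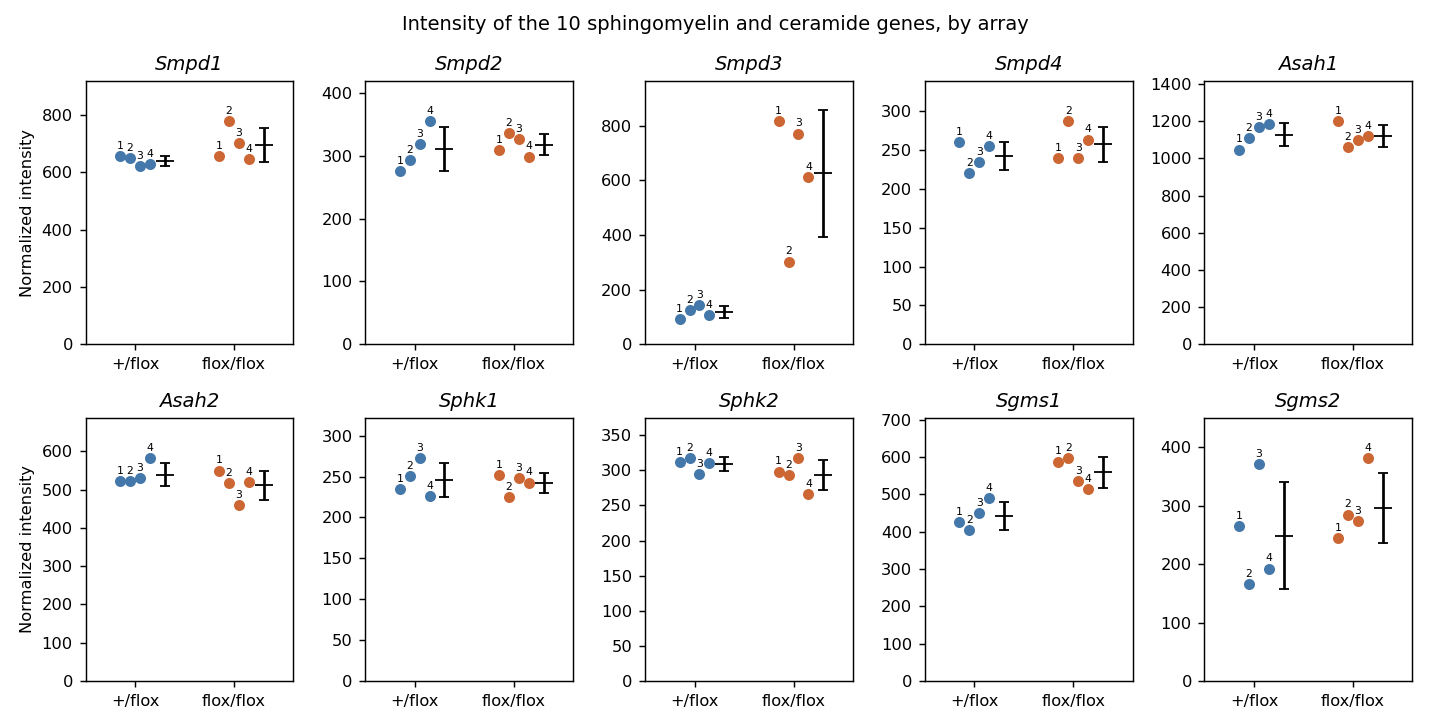
Normalized intensity (y axis, linear, from 0, with its own scale in each panel) of the 10 genes in each array, +/flox in blue and flox/flox in orange, with the replicate number above each point; the black mark and bar are the mean and SD of 4 arrays. Smpd3 lies between 92.6 and 144 in the controls and between 303 and 817 in flox/flox glands, Sgms1 is separated by a narrow gap, and the points of the other 8 genes overlap.

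The other 3 sphingomyelinases gave small differences that did not pass the test. Smpd2 encodes the other classical neutral sphingomyelinase, an enzyme of the endoplasmic reticulum. It read 276, 294, 319 and 356 in the controls and 309.9, 336, 327 and 299 in the flox/flox glands. The flox/flox values of Smpd2 lay inside the range of the controls. Its log2 difference was 0.04 ± 0.08 (SE, 95% interval -0.15 to 0.22), and without +/flox replicate 1 it was -0.017.

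Smpd1 encodes the acid sphingomyelinase of the lysosome, the enzyme deficient in Niemann-Pick disease types A and B. Its values ran from 623 to 656 in the controls and from 646 to 779 in the flox/flox glands, with flox/flox replicate 2 the highest, the array that was lowest for Smpd3. The log2 difference of Smpd1 was 0.12 ± 0.07 (SE, 95% interval -0.04 to 0.28, limma adjusted p = 0.622). Smpd4 encodes a neutral sphingomyelinase of the endoplasmic reticulum and nuclear envelope. It ran from 220.3 to 259.7 in the controls and from 239 to 287 in the flox/flox glands, and its log2 difference was 0.08 ± 0.08 (SE, 95% interval -0.10 to 0.26). Its highest flox/flox value was again in replicate 2.

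Sphingomyelin synthases came second in size. Sgms1, the Golgi enzyme that makes most new sphingomyelin, read 425, 404, 451 and 491 in +/flox replicates 1 to 4 and 588, 598, 535 and 514 in flox/flox replicates 1 to 4. The genotypes did not overlap, with the lowest flox/flox value just above the highest control. Values without overlap were found for 2 of the 10 members, Smpd3 and Sgms1, both higher, and for 5.9% of all genes, 2.74% higher and 3.16% lower.

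The means of Sgms1 were 443 ± 37.5 and 559 ± 40.6 (SD, n = 4 each). Its log2 difference of 0.33 ± 0.08 (SE, 95% interval 0.15 to 0.50) had an unadjusted limma p of 0.00194 and did not pass after adjustment over all genes (adjusted p = 0.220). Over the 18 alternative settings the log2 difference stayed between 0.29 and 0.38, and the adjusted p between 0.138 and 0.403. Sgms1 and Smpd3 did not share their order within the flox/flox glands, since replicate 2 was the highest for Sgms1 and the lowest for Smpd3.

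Sgms2 encodes the sphingomyelin synthase of the plasma membrane. It read 265, 166, 372 and 192 in the controls and 244, 285, 274 and 382 in the flox/flox glands. The controls of Sgms2 varied by more than the genotypes differed, with a log2 SD of 0.48 against 0.04 to 0.15 for the 8 members other than Smpd3 and Sgms2. That made its interval the widest of the 9 members other than Smpd3, with a log2 difference of 0.28 ± 0.21 (SE, 95% interval -0.19 to 0.75, adjusted p = 0.695), which reaches from 0.877-fold to 1.69-fold.

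The ceramidases among the members, Asah1 and Asah2, gave no difference beyond the spread between arrays. Asah1, the acid ceramidase of the lysosome that is deficient in Farber disease, read 1047 to 1185 in the controls and 1062 to 1199.9 in the flox/flox glands. The ranges almost coincided, with a log2 difference of -0.01 ± 0.07 (SE, 95% interval -0.16 to 0.14). The sign of this difference turned with the scaling, to 0.022 without quantile normalization and 0.020 after median centring. Asah2, the neutral ceramidase, read 522 to 583 in the controls and 459 to 549.7 in the flox/flox glands, with a log2 difference of -0.08 ± 0.07 (SE, 95% interval -0.24 to 0.09).

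Sphingosine kinases also overlapped between the genotypes. Sphk1, the cytoplasmic kinase that moves to the plasma membrane on stimulation, read 226 to 273 in the controls and 224 to 252 in the flox/flox glands. Its log2 difference was -0.02 ± 0.07 (SE, 95% interval -0.19 to 0.14), and it was 0.026 without +/flox replicate 3. Sphk2, the kinase found largely in the nucleus and at internal membranes, read 294 to 318 and 266 to 318, with a log2 difference of -0.07 ± 0.07 (SE, 95% interval -0.22 to 0.08). For Asah1, Asah2, Sphk1 and Sphk2 the bounds of the 95% intervals lay between 0.848-fold and 1.10-fold.

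**Figure D2:**
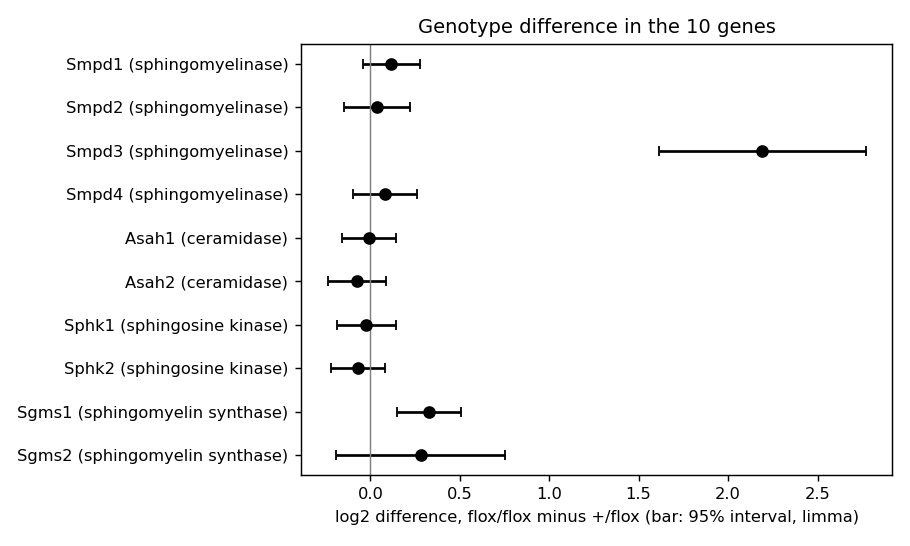
Log2 difference between flox/flox and +/flox glands (x axis) for each of the 10 genes with the 95% interval of limma, 4 arrays per genotype. The interval of Smpd3, from 1.61 to 2.77, lies apart from the other 9, of which only that of Sgms1, from 0.15 to 0.50, does not include 0.

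As a list, 6 of the 10 members had positive and 4 negative differences, with a median of 0.06 against -0.01 over all genes tested. At an unadjusted limma p under 0.05 there were 2 of 10, Smpd3 and Sgms1, both higher, against 10.3% of all genes, 4.81% higher and 5.46% lower. Without Smpd3 the median absolute log2 difference of the 9 remaining members was 0.08, the same to this precision as that of all genes (0.08).

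The rest of the sphingolipid pathway was followed with a list of 60 other genes, of which 57 were measured. None of the 57 passed the threshold in limma after adjustment over all genes, and 3 had an unadjusted p under 0.05, or 5.26%, against 10.3% of all genes. Of the 57 there were 29 with positive and 28 with negative differences, and the median was 0.00.

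Those 3 genes were the alkaline ceramidases Acer2 and Acer3 and the ganglioside sialyltransferase St8sia1. Acer2, the ceramidase of the Golgi, read 557, 561, 580.0 and 789 in the controls and 1222, 852, 941 and 656 in the flox/flox glands. The lowest flox/flox gland, replicate 4, lay below control replicate 4. The log2 difference of Acer2 was 0.53 ± 0.17 (SE, adjusted p = 0.314).

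Acer3, the alkaline ceramidase of the endoplasmic reticulum and Golgi that prefers ceramides with unsaturated fatty acids, read 166, 162, 177 and 126 in the controls and 189, 218, 212 and 234 in the flox/flox glands. Its genotypes did not overlap, and the log2 difference was 0.41 ± 0.10 (SE, adjusted p = 0.233). Of the 57 genes 1 was without overlap in the higher direction, Acer3, and 1 in the lower direction, St8sia1. Over all genes the shares without overlap were 2.74% higher and 3.16% lower. St8sia1, which makes the ganglioside GD3, was the gene with lower values: 101 to 113 in the controls and 89.4 to 96.4 in the flox/flox glands, a log2 difference of -0.18 ± 0.06 (SE, adjusted p = 0.372). The third alkaline ceramidase, Acer1, was at 0.05 ± 0.10 (SE).

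In the remaining steps no gene reached an unadjusted p of 0.05 in limma apart from St8sia1, and the gene with the smallest p in each is given by value. Among 8 genes of serine palmitoyltransferase, which starts sphingolipid synthesis, and its regulators this was the small subunit Sptssa, at 0.19 ± 0.09 (SE). Among 8 ceramide synthesis genes it was the desaturase Degs1, at 0.11 ± 0.08. Ceramide kinase, Cerk, was at 0.07 ± 0.09, and the intestinal alkaline sphingomyelinase Enpp7 was at -0.09 ± 0.08. The mitochondria-associated sphingomyelinase Smpd5 was at 0.00 ± 0.08, and the neutral sphingomyelinase adaptor Nsmaf was at -0.01 ± 0.07.

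Among the 7 measured transporters and receptors of S1P the smallest p belonged to the exporter Spns2, at 0.17 ± 0.08 (SE), and the receptor S1pr1, known for guiding lymphocytes out of lymph nodes, was at 0.02 ± 0.11. Lysosomal genes of glycosphingolipid breakdown were negative in 7 of 9, with the galactosidase Glb1 at -0.22 ± 0.11 and the sphingolipid activator precursor Psap at -0.02 ± 0.07.

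**Figure D3:**
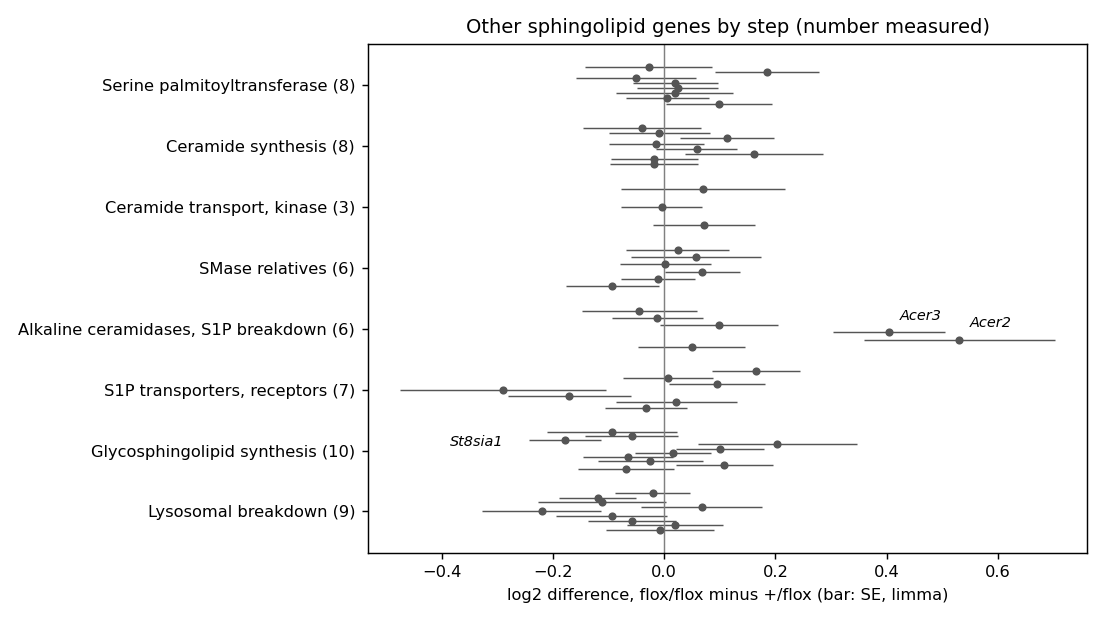
Log2 difference between flox/flox and +/flox glands (x axis, bar: SE) of 57 other sphingolipid genes, grouped by step of the pathway, each point one gene and the number measured in brackets. The 3 genes with an unadjusted limma p under 0.05 are named; Acer2 and Acer3, at 0.53 and 0.41, lie farthest to the right.

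The genes with the profile most like that of Smpd3 over the 8 arrays were found by Pearson's r on log2 values, given as a description because the genotype difference alone raises r. The highest r was that of the diacylglycerol lipase gene Daglb (0.991), followed by the ribonuclease gene Rnase2a (0.985), the receptor gene Mrgprg (0.974), Cacul1 (0.974), Glce (0.971), Inpp5j (0.964), Sec14l1 (0.963), Raph1 (0.961), Fcgr2b (0.956) and Gpc6 (0.952). Of these 10 genes, Daglb, Rnase2a, Mrgprg and Sec14l1 were also among the 8 genes past the threshold.

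Part of this likeness lay within the genotypes. In flox/flox replicate 2 the log2 deviation from the flox/flox mean was -0.92 for Smpd3, -0.57 for Daglb, -0.80 for Mrgprg and -2.39 for Rnase2a. With the genotype means taken out, r with Smpd3 over the 8 arrays was 0.940 for Daglb, 0.891 for Rnase2a, 0.879 for Mrgprg and 0.525 for Duox2. By that measure alone the nearest genes were Crb2 (0.986), 1500035N22Rik (0.983), Cntn2 (0.977), Acsm2 (0.976) and Tex46 (0.976), of which Cntn2 had higher values in all flox/flox glands than in any control and the other 4 overlapped. Among the members themselves, r of these deviations with Smpd3 ran from -0.87 for Smpd4 and -0.78 for Smpd1 to 0.62 for Asah1 and 0.76 for Sphk1. For Smpd3 the array farthest from its genotype mean was flox/flox replicate 2, which weighs on all of these r values.

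**Figure D4:**
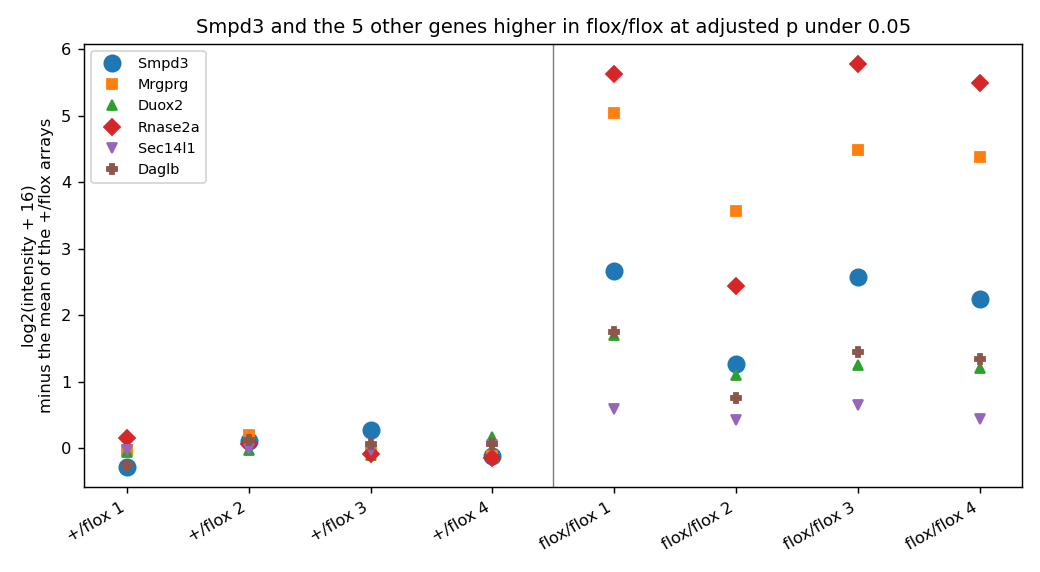
Log2(intensity + 16) minus the mean of the 4 +/flox arrays (y axis) in each array (x axis; the vertical line parts the genotypes) for Smpd3 and the 5 other genes that were higher in flox/flox glands at an adjusted p under 0.05. For all 6 genes flox/flox replicate 2 gives the lowest of the flox/flox values.

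Among the cell type marker lists, that of eosinophils and mast cells had positive differences for 8 of 9 markers, with a median of 0.33. Over all genes 9450 of 19938 were positive. Other lists leaned as far in the lower direction. Positive differences were found for 0 of 7 B cell markers and 0 of 5 Schwann cell and nerve markers. They were found for 1 of 6 T cell and 1 of 8 skeletal muscle markers. None of the 9 eosinophil and mast cell markers passed after adjustment over all genes. An unadjusted limma p under 0.05 was found for 4 (Ccr3, Mcpt4, Cma1 and Fcer1a), all higher. Over all genes the share was 10.3%, 4.81% higher and 5.46% lower. The summed intensity of the 9 markers ran from 2326 to 2623 in the controls and from 2468 to 3196 in the flox/flox glands. Fcer1a, a subunit of a mast cell IgE receptor, averaged 48.5 in the controls and 89.9 in the flox/flox glands. The eotaxin receptor gene Ccr3 averaged 71.4 and 127, and the eosinophil granule gene Prg2 averaged 124 and 109. Separate ranges were found for 2 of the 9 markers, Fcer1a and Ccr3, both higher, and for 2.74% of all genes in that direction. In flox/flox replicates 1 to 4 the sum of the 9 markers was 3196, 2979, 2468 and 3080. Kit, the brightest of them, averaged 833 in the controls and 867 in the flox/flox glands. The part of eosinophils and mast cells in the Smpd3 result was not tested.

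Skin and hair keratinocyte markers summed to 1223 to 1338 in the controls and to 1091 to 1199.8 in the flox/flox glands. These sums did not overlap, and 2 of the 8 markers had positive differences. Separate ranges for single markers were found for 2 of the 8, Krt1 and Krt10, both lower. In that direction 3.16% of all genes had separate ranges. Krt1, the brightest of the 8, averaged 546 in the controls and 481 in the flox/flox glands. Fibroblast markers, 3 of 8 positive with a median of -0.25, summed to 36088 to 46158 and 32809.9 to 38829.7. Of these 8 there were 3 with an unadjusted limma p under 0.05 (Col1a1, Col3a1 and Pdgfrb), all lower. Over all genes 5.46% were lower at that threshold. Cartilage and bone markers, from tissues in which Smpd3 is known to be active, had 4 of 7 positive with a median of 0.02. They summed to 1382 to 1820.3 in the controls and 1268 to 1549.8 in the flox/flox glands. The 4 positive markers were at 0.02 to 0.07, and the brightest of the 7, Col2a1 and Col9a1, were at -0.28 ± 0.13 and -0.22 ± 0.09 (SE). None of the 13 marker lists had a member past the adjusted threshold, and the part of these cells in the Smpd3 result was not tested.

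Genes next to Smpd3 on its chromosome did not share its size of change. The nearest 3 measured genes on each side in the RefSeq order were chosen for this comparison after the Smpd3 result was known. On one side Slc7a6, Slc7a6os and Prmt7 were at log2 differences of 0.08 ± 0.10, 0.08 ± 0.08 and 0.01 ± 0.07 (SE). On the other side Zfp90 was at 0.18 ± 0.08, the P-cadherin gene Cdh3 at 0.18 ± 0.08 and the E-cadherin gene Cdh1 at 0.02 ± 0.11. All 6 overlapped between the genotypes, as did most genes, since 5.9% of all genes were without overlap. None of the 6 passed after adjustment over all genes. Zfp90 and Cdh3, both higher and on the same side of Smpd3, had an unadjusted limma p of 0.0431 and 0.0383. Of all genes 10.3% were under 0.05, 4.81% higher and 5.46% lower.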

How the data were processed

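The authors deposited a linear intensity for each probe set. Per the submitters' processing notes, PLIER and Affymetrix Expression Console 1.0 were used; not given in the sources used here is which background correction and between-array normalization they applied. The table held 35557 probe sets and no detection calls, and array medians lay between 159 and 178. GEO's platform annotation gave 1 symbol for 21789 of them, several for 1621 and none for 12147. The brightest probe set with 1 symbol stood for its gene, for 19938 genes.

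To each value 16 was added before log2, and the values were quantile normalized over all probe sets, since array percentiles spread by up to 0.245 on the log2 scale. Intensities in the text are these values taken back from log2, less the offset. The difference, flox/flox minus +/flox, was tested in R 4.3.3 by lmFit and eBayes of limma 3.58.1, with Benjamini-Hochberg adjustment over all genes and a threshold of 0.05. Scripts were tested on simulated arrays. Replicate numbers were not used as pairs. Alternatives covered the scaling, offset, filter, probe set choice, eBayes options, array weights, a replicate block and leaving out each array. The number of arrays, 4 per genotype, limits the precision.

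The members and lists were chosen with earlier results of these data known. The text names the members, Sox9, the other sphingolipid gene with the smallest p in each step, the 10 genes most like Smpd3 and the 5 most like it by deviations, genes behind counts of 5 or fewer, and a few genes chosen after their values were seen (Acer1, Duox2, Smpd5, Nsmaf, S1pr1, Psap, markers and neighbours). RefSeq's GRCm38.p6 table gave gene order only and matched 19855 genes. The 3 listed sphingolipid genes without a value were not analysed here.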

Additional observations from a re-analysis of the deposited data

Results flagged for a closer look

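Among 19 genes, the members, Sox9 and the gene with the smallest p in each sphingolipid step, 38 groups of 4 arrays were searched for an array far from its group, and 1 was found, where chance flags about 1 in 20 groups. Asah2 read 583 in +/flox replicate 4, against 522 to 530.3 in the other +/flox arrays; the gap to the nearest was 0.860 of the whole range. Without that array the log2 difference of Asah2 was -0.04, and it did not pass the test with or without it.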

How the results depend on the processing

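Of the 10 members 1, Smpd3, passed in 7 of 10 alternative settings and in 4 of the 8 fits that left out 1 array. The count was 0 with an offset of 1, with every probe set tested and with trend and robust options, with 2 members at an unadjusted limma p under 0.05 in each, and it ran from 0 to 1 with 1 array left out. The log2 difference of Smpd3 was 2.33 with an offset of 1, 1.86 with an offset of 64, 2.19 with every probe set and with trend and robust options, and 2.04 to 2.48 with 1 array left out. Over all genes the 8 calls became 18 with median centring, 4 with an offset of 1, 19 with an offset of 64, 3 without the lowest 1 in 3 genes, 1 with every probe set, 17 with trend and robust options and 2 to 19 with 1 array left out. Testing every probe set raised the number of tests to 35557, and the unadjusted p of Smpd3 rose from 4.99e-06 to 3.47e-05. The cause of these shifts was not tested. No other sphingolipid gene passed in any of the 18 alternatives, with 2 to 5 at an unadjusted p under 0.05. Near-zero differences changed sign: Asah1 was 0.022 as deposited, 0.020 with median centring, 0.0088 with array weights and -0.043 to 0.016 with 1 array left out, Smpd2 -0.017 to 0.10 and Sphk1 -0.060 to 0.026 with 1 array left out. With the replicate number as a block Smpd3 was at 2.19 with an adjusted p of 0.0371, and 8 genes passed. The labels do not say that the numbers mark pairs, and deviations of same-numbered arrays correlated at -0.204, 0.0625, 0.209 and -0.0948, so pairing was not used. Detection calls were not used here, so dim values cannot be told from background.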
